A study of Mus musculus with 8 samples.

Results

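Cadherins are calcium-dependent adhesion proteins of the cell surface, and 41 protein-coding genes of the classical, delta and giant branches of the family were followed in whole brains of mouse embryos. They were chosen by gene name among the 33971 genes of the count table: the numbered Cdh genes without the endothelial *Cdh5*, the numbered Pcdh genes outside the clustered alpha, beta and gamma families, *Celsr1* to *Celsr3*, and *Fat1* to *Fat4*. The embryos and both their parents were wild-type (WT). From the day of mating, the dams were kept on choline-deficient food (CDD) or on normal chow (ND), and embryos were taken at embryonic day 14.5 (E14.5), with 4 brains in each group. Polyadenylated RNA of each brain was sequenced as 1 library without sorting of cells, so that fewer cells of one type and less RNA per cell of that type cannot be told apart. The sources used here do not give the number of dams or litters or the sex of these embryos. The p-values measure the spread between brains, which may or may not include that between litters. Diet was given to the dam, so with the litters unknown a difference between diets cannot be told apart from one between litters.

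In a classical cadherin, the outer repeats of one molecule bind those of another on the neighbouring cell, while the inner tail holds beta-catenin and p120-catenin, and alpha-catenin then links the complex to actin. N-cadherin (*Cdh2*) makes up the junctions that bind neural progenitors to each other at the surface of the ventricle, and type II cadherins mark out groups of neurons by their different combinations. The delta protocadherins lack the catenin-binding tail. The Fat protein Fat4 binds Dachsous on the adjacent cell, whereas Celsr proteins bind each other, and both orient cells within the plane of a tissue.

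Libraries held between 31770217 and 43121170 counts, and the cadherin genes together took 0.34% to 0.372% of them. Levels below are counts per 1000000 (CPM) of the library after scaling by the trimmed mean of M values (TMM), as mean ± SD with n = 4 brains per diet. The library labelled CDD replicate 2 stood apart in its Hox genes, at 144 CPM summed over 28 genes, against 0.468 to 3.38 CPM in the other 7 libraries. *Xist*, the RNA of the inactive X chromosome, was at 1611 to 1700 CPM in CDD replicates 2 and 4 and ND replicate 4 and at 0.18 to 0.351 CPM in the other 5. Markers of neurons were high in every brain, with a sum over 8 genes of 5921 to 6561 CPM.

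The comparison asked which cadherin genes differ in the embryonic brain with the mother's diet. *Fat1* and *Fat3* rose in CDD brains, and *Pcdh8*, *Pcdh1* and *Fat2* fell. These 5 genes were called at an adjusted p under 0.05 by the quasi-likelihood test of edgeR, out of the 38 cadherin genes that passed the filter on low counts (13.2%). Over all 19367 genes tested, 8.83% were called, of which 4.24% were higher and 4.59% lower in CDD. Unadjusted p was under 0.05 for 12 of the 38 genes (31.6%), against 23.9% of all genes tested. The log2 fold change of CDD over ND was below 0 for 24 of the 38 genes, or 63.2%, against 50.9% of all genes. Its median was -0.07 over the cadherin genes and -0.0038 over all genes, and 29 of the 38 differed by less than 0.2 in either direction.

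**Figure D1:**
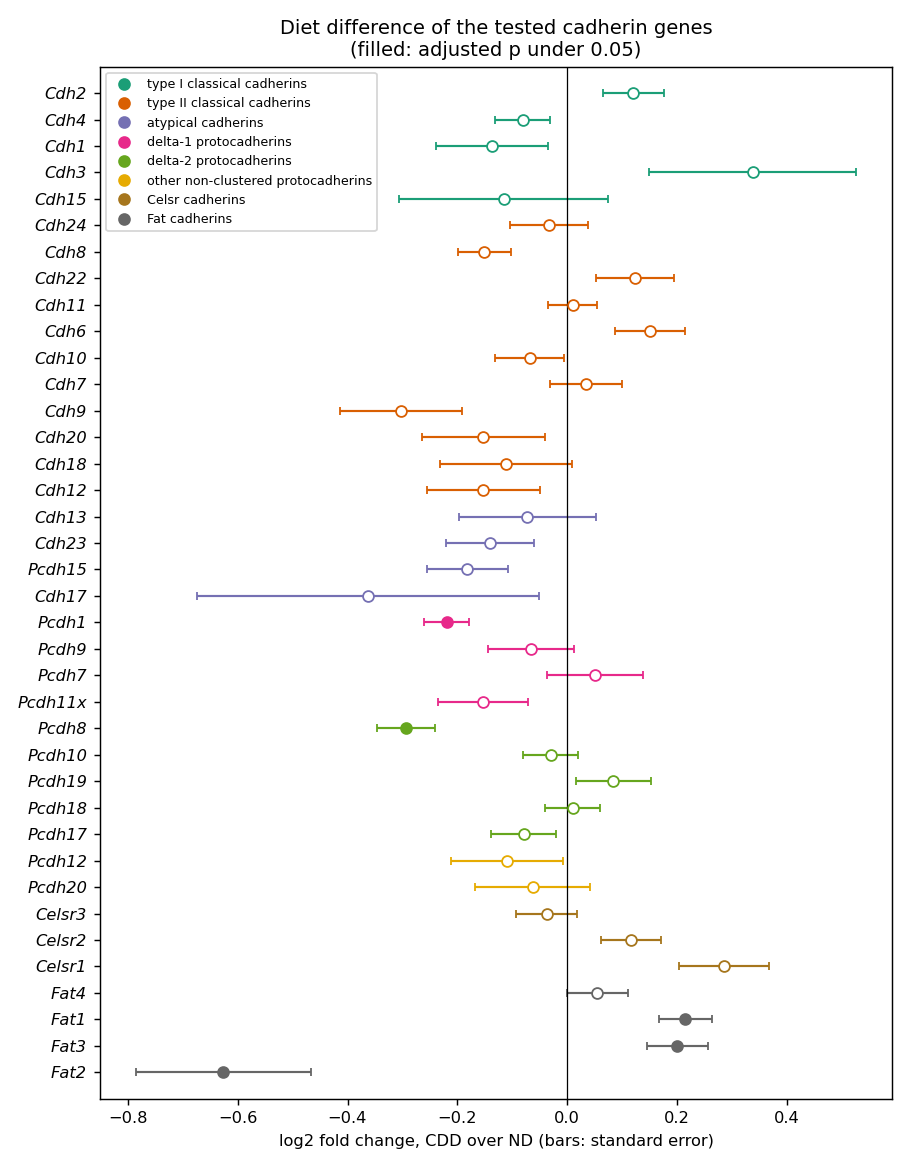
Log2 fold change of CDD over ND for the 38 tested cadherin genes, with the standard error as a bar; colours give the branch of the family, and filled points have an adjusted p under 0.05. The 5 filled points are *Fat1* and *Fat3* on the right of 0, and *Pcdh8*, *Pcdh1* and *Fat2* on the left.

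Cadherin genes are long. Their median length in the table was 8850.5 bases, against 3733 bases for all genes tested, and 17 of the 38 lay in the longest 10% of genes. In that class 16.2% of genes were called and the median log2 fold change was 0.04, whereas 1.7% were called in the shortest 10%. The 13.2% of cadherin genes called lay between the share of all genes and that of the longest class. With a smooth trend of length taken out of each library, the 5 genes stayed called in the same directions, and 7 cadherin genes of 38 were called in all, beside 10.7% of all genes in that fit.

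The Fat cadherins are the giants of the family, with a very long row of cadherin repeats in each. Of the 4 genes, 3 were called, 2 higher and 1 lower in CDD. All 4 lay in the longest class of genes, with at least 9179 bases, where 16.2% were called. Each of the 3 calls was lost when certain ND brains were left out. Fewer of all genes were called in those fits too, at 3.5%, 7.38%, 2.4% and 3.13% without ND replicates 1 to 4, against 8.83% with all 8 brains. *Fat1*, which acts at the apical junctions of neural progenitors (chr8:45388484-45505294, plus strand, in the coordinates of the deposited table), was at 196, 188, 191 and 214 CPM in CDD replicates 1 to 4. Its ND values were 163, 179, 171 and 166 CPM. Every CDD brain was above every ND brain. The level was 197 ± 11.7 CPM in CDD and 169.8 ± 7.20 CPM in ND, a rise of 0.22 on the log2 scale (SE 0.048, adjusted p = 0.0101). *Fat1* was no longer called without ND replicate 1 (log2 fold change 0.20, adjusted p = 0.0587) or without ND replicate 4 (0.20, adjusted p = 0.0555).

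*Fat3*, a receptor that shapes the dendrites of amacrine cells in the retina (chr9:15821485-16412581, minus strand), was at 187, 190.0, 194 and 229.6 CPM in the CDD brains. In the ND brains it was at 172, 177, 171 and 177 CPM. The groups did not overlap, and CDD replicate 4 lay well above the other 3 CDD brains. *Fat3* was 0.20 higher on the log2 scale (SE 0.056, adjusted p = 0.0313), and without CDD replicate 4 the difference was 0.13 with an adjusted p of 0.0409. The call was lost when any ND brain was left out, with adjusted p-values of 0.104, 0.0619, 0.126 and 0.0822 without ND replicates 1 to 4 and log2 fold changes between 0.19 and 0.21.

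*Fat2*, known from the granule neurons of the cerebellum (chr11:55141435-55227390, minus strand), was close to the bottom of the family, at 70 to 129 counts per library. Its CDD values were 2.90, 2.03, 1.86 and 2.14 CPM, and its ND values were 3.77, 2.85, 3.53 and 3.57 CPM. CDD replicate 1 was just above ND replicate 2, so that the groups overlapped by that pair. *Fat2* fell by 0.63 on the log2 scale (SE 0.16, adjusted p = 0.0205), the largest absolute difference among the 38 genes. The call was lost without ND replicate 1 (-0.58, adjusted p = 0.0789), ND replicate 3 (-0.61, adjusted p = 0.0767) or ND replicate 4 (-0.61, adjusted p = 0.0677).

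*Fat4*, the mammalian receptor for Dachsous and the Fat gene with the most counts per kb here, did not pass the test. It was at 222, 223, 250.3 and 269 CPM in the CDD brains and at 225, 238, 233 and 233 CPM in the ND brains. The CDD brains lay on both sides of the narrow ND range. Its log2 fold change was 0.06 (SE 0.056, adjusted p = 0.600), and it turned to -0.0025 without CDD replicate 4. Summed over the 4 Fat genes, the level was 603 to 715 CPM in CDD and 564 to 597 CPM in ND.

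**Figure D2:**
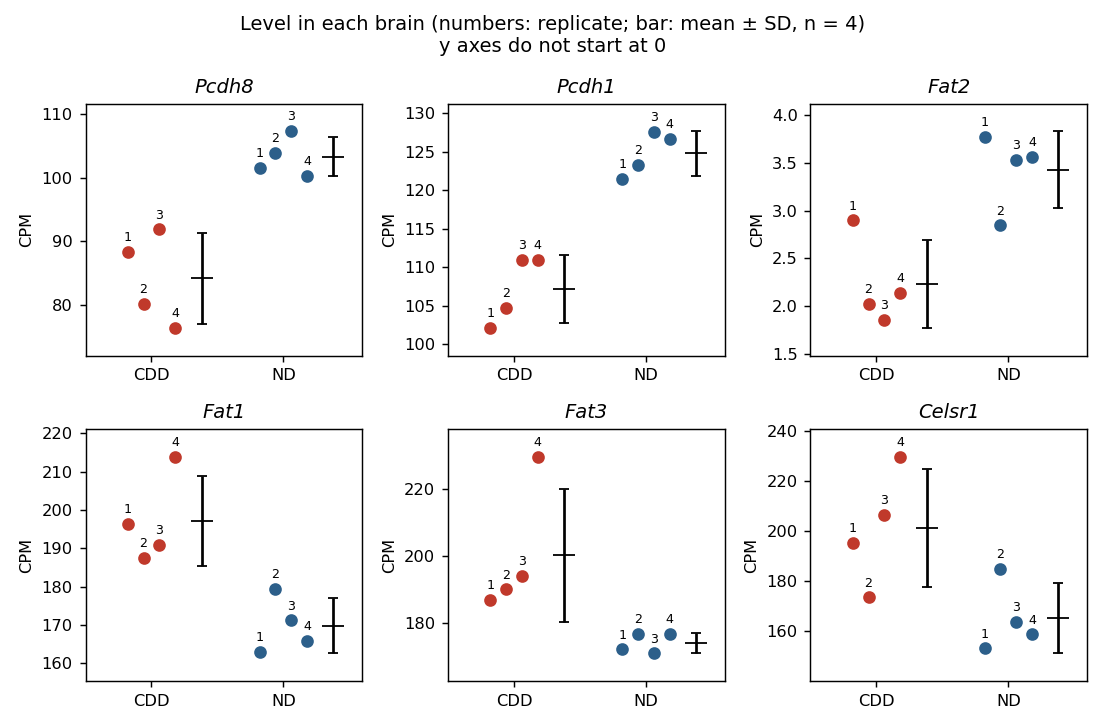
Level in CPM in each brain for the 5 called genes and *Celsr1*; the numbers give the replicate, the bars the mean and SD of 4 brains, and each y axis has its own range that does not start at 0. The CDD and ND points do not overlap for *Pcdh8*, *Pcdh1*, *Fat1* and *Fat3*, and overlap by 1 pair of brains for *Fat2*.

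None of the 3 Celsr genes, which encode cadherins joined to an adhesion receptor with several membrane spans, passed the test, although the first came close to it. *Celsr1*, the member used by dividing progenitors, was named after its values were seen. It was at 195, 174, 206 and 229.7 CPM in the CDD brains and at 153, 185, 164 and 159 CPM in the ND brains. Only CDD replicate 2 lay within the ND range. Its log2 fold change was 0.29 (SE 0.082, adjusted p = 0.0535), and it was called without CDD replicate 2 (0.35, adjusted p = 0.00634) and without ND replicate 2 (0.35, adjusted p = 0.0152). It was also called by DESeq2 (adjusted p = 0.0049), with the trend of gene length taken out (0.0425) and without the filter on low counts (5.28e-07), but not with RLE scaling (0.0529), with a replicate block (0.137), with both the block and the length trend (0.136) or with *Xist* as a covariate (0.124). *Celsr2* was at 410 ± 26.8 CPM in CDD and 378 ± 19.7 CPM in ND (log2 fold change 0.12, SE 0.055, adjusted p = 0.200).

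*Celsr3*, the member of maturing neurons that guides their axon tracts, had the most counts per kb of the 3. It was at 422, 395, 454 and 472 CPM in the CDD brains, and at 436, 463, 449 and 439.9 CPM in the ND brains. The ND values fell inside the CDD range. The log2 fold change was -0.04 (SE 0.055, adjusted p = 0.747), and 0.0091 without CDD replicate 2.

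Among the delta protocadherins, 1 gene of each branch fell. *Pcdh8* is a delta-2 member, also called arcadlin or PAPC, which lowers the adhesion of other cadherins at synapses (chr14:80004215-80008752, minus strand). It was at 88.3, 80.2, 91.9 and 76.4 CPM in the CDD brains. In the ND brains it was at 102, 104, 107 and 100.3 CPM. All CDD values were below all ND values. *Pcdh8* fell by 0.29 on the log2 scale (SE 0.053, adjusted p = 0.00287) and stayed called whichever brain was left out, with adjusted p-values between 0.000463 and 0.021.

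The promoter of *Pcdh8* is shown because it was the cadherin gene with the lowest adjusted p, and because its start is the same in RefSeq and in GENCODE M21, where 3 of 4 transcripts begin at it. The 250 bases before the start (GRCm38.p6, chr14:79771313-79771562, minus strand, from RefSeq) are given 5′ to 3′, with the capitals marking ATTGG, which is the box CCAAT read on the opposite strand, and the TATA box TATAAA. The coordinates of this window differ from those of the deposited table, given above for the gene, and cannot be combined with them.

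Pcdh8 promoter: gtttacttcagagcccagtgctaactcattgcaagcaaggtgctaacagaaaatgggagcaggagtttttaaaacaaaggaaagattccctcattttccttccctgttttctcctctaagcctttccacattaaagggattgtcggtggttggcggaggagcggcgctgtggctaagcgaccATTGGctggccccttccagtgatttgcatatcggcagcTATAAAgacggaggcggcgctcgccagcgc

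The TATA box lay 30 to 25 bases before the start, and the CCAAT box 68 to 64 bases before it. The GC content of the window was 51.2%, near the median of 52.4% over all 32851 windows. RefSeq windows were at hand for 28 of the 41 genes. TATAAA on either strand was in those of 2 of the 28, *Pcdh8* and *Pcdh15*, and in 12.4% of all windows. CCAAT was in those of 14 of the 28 genes and in 33.8% of all windows, and the GC box GGGCGG in 10 of the 28 and in 32.7%. A match of these letters describes the sequence, and no binding was measured here.

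*Pcdh1*, a delta-1 protocadherin of epithelia and brain (chr18:38318967-38345106, minus strand), was at 102, 105, 111 and 111 CPM in the CDD brains and at 122, 123, 128 and 127 CPM in the ND brains. Again the groups did not overlap. It fell by 0.22 on the log2 scale (SE 0.041, adjusted p = 0.00354), and was called whichever brain was left out (adjusted p-values between 0.000556 and 0.0317). It had the smallest SE of the 38 genes.

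The other 7 delta protocadherins did not pass the test. In the delta-1 branch, *Pcdh9* had a log2 fold change of -0.07, *Pcdh7* of 0.05 and the X-linked *Pcdh11x* of -0.15. In the delta-2 branch, *Pcdh10*, *Pcdh17*, *Pcdh18* and *Pcdh19* lay between -0.08 and 0.08. *Pcdh19*, the gene of a form of epilepsy that affects heterozygous females, is also on the X chromosome. Its CDD values were 107, 108, 101 and 133 CPM, against 103 to 108 CPM in the ND brains. CDD replicate 4 was the highest of the 8 brains and CDD replicate 3 the lowest.

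Within the CDD brains, *Pcdh11x* and *Xist* were both higher in replicates 2 and 4. *Pcdh11x* was at 31.6 and 33.1 CPM there and at 24.9 and 25.5 CPM in CDD replicates 1 and 3. This split was not particular to the X chromosome. *Pcdh7*, on chromosome 5, was at 65.2 and 61.9 CPM in CDD replicates 2 and 4 and at 48.7 and 50.7 CPM in replicates 1 and 3. *Cdh2* and *Pcdh9* split in the same way, and *Cdh24* the other way. In the ND brains, *Pcdh11x* was between 30.1 and 33.3 CPM. It was at 33.3 CPM in ND replicate 4, the ND brain high in *Xist*, and at 32.7 CPM in ND replicate 1. The log2 fold change of *Pcdh11x* was -0.15 (adjusted p = 0.275). With *Xist* as a covariate, an alternative chosen after its counts were seen, it was called at -0.22 with an adjusted p of 0.0292.

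Type I classical cadherins are the strongly adhesive ones, and 0 of 5 were called. *Cdh2* was at 343, 396, 364 and 419 CPM in the CDD brains and at 349.5, 345, 352 and 353 CPM in the ND brains. The CDD brains spread widely, with 3 above the ND range and CDD replicate 1 below it. The log2 fold change was 0.12 (SE 0.056, adjusted p = 0.193). *Cdh4*, or R-cadherin, was at 160.5 ± 13.3 CPM in CDD and 169.8 ± 2.80 CPM in ND (-0.08, adjusted p = 0.354). *Cdh1*, *Cdh3* and *Cdh15*, known from epithelia and muscle, were under 9 CPM in every brain and had log2 fold changes of -0.14, 0.34 and -0.12.

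Of the 12 type II classical cadherins, 11 were tested and 0 were called, with log2 fold changes between -0.30 for *Cdh9* and 0.15 for *Cdh6*. *Cdh24* had the most counts per kb of them, at 117, 101, 116 and 89.9 CPM in the CDD brains and 109, 114, 106 and 106 CPM in the ND brains. CDD brains lay on both sides of the ND range (-0.03, SE 0.071, adjusted p = 0.834). The lowest adjusted p of the branch was that of *Cdh8*, a marker of cortical and thalamic areas, which was named after its values were seen. It was at 63.7, 71.2, 65.9 and 69.8 CPM in the CDD brains and at 73.1, 71.2, 78.3 and 77.6 CPM in the ND brains. CDD replicate 2 and ND replicate 2 were almost level, and the groups just failed to overlap. The log2 fold change was -0.15 (SE 0.048, adjusted p = 0.0585), and without CDD replicate 4 it was -0.17 with an adjusted p of 0.0343. *Cdh8* was also called with the trend of gene length taken out (0.0398) and with that trend and a replicate block (0.0488). It was called without the filter on low counts (0.0448) and with *Xist* as a covariate (0.0182). It was not called by DESeq2 (0.059), with RLE scaling (0.0703), with the block alone (0.0599) or with any other brain left out.

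*Cdh9*, which acts at synapses of the hippocampus, was the other type II gene without overlap, with 4.60 to 6.46 CPM in CDD and 6.97 to 7.54 CPM in ND (-0.30, SE 0.11, adjusted p = 0.0972). In all, 6 cadherin genes of 38 had no overlap between the diets (15.8%), namely *Fat1* and *Fat3* with higher and *Pcdh8*, *Pcdh1*, *Cdh8* and *Cdh9* with lower values in CDD. Over all genes tested, the share without overlap was 15.0%, so that the cadherin share was near the background.

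The 4 tested atypical cadherins lay below 0 and none was called. *Cdh13*, or T-cadherin, which is held to the membrane by a lipid anchor and has no tail, was at 78.5, 116, 109.8 and 105 CPM in the CDD brains and at 107, 95.7, 115 and 112 CPM in the ND brains. CDD replicate 1 was the lowest of all 8. Its log2 fold change was -0.07 (SE 0.13, adjusted p = 0.790), and 0.04 without CDD replicate 1. *Cdh23* and *Pcdh15*, which together form the tip links of hair cells in the ear, had values of -0.14 and -0.18, and *Cdh17* of -0.36 at under 1 CPM. The other non-clustered protocadherins, *Pcdh12* and *Pcdh20*, were at -0.11 and -0.06. *Pcdh12*, a gene of endothelium, was at 7.82, 8.46, 9.85 and 11.1 CPM in the CDD brains and at 9.95, 10.1, 10.8 and 9.36 CPM in the ND brains. The groups overlapped (SE 0.10, adjusted p = 0.565). *Cdh16*, *Cdh19* and *Cdh26* failed the filter, with at most 12 counts in any library.

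Levels can be set against each other between genes only per length, here as CPM per kb of the listed gene length and averaged over the 8 brains. *Cdh2* was highest at 45.3 CPM per kb, followed by *Celsr3* at 36.6, *Celsr2* at 32.7, *Cdh24* at 30.8, *Cdh4* at 22.8 and *Pcdh8* at 20.7. In the ND brains *Celsr3* (37.0 ± 0.992 CPM per kb) and *Cdh2* (43.4 ± 0.427) were apart by more than their SDs, whereas *Celsr2* (31.4 ± 1.63) and *Cdh24* (31.1 ± 0.979) were not. *Cdh4* (23.4 ± 0.385) and *Pcdh8* (22.8 ± 0.677) were also within their SDs of each other in ND. In CDD the mean of *Pcdh8* was 18.6 ± 1.57 CPM per kb and that of *Cdh4* 22.1 ± 1.84. *Fat1* was at 12.6 ± 0.749 CPM per kb in CDD and 10.9 ± 0.460 in ND, and *Fat3* at 9.32 ± 0.927 and 8.11 ± 0.138. The lowest tested genes were *Fat2* at 0.195 and *Cdh17* at 0.165 CPM per kb.

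**Figure D3:**
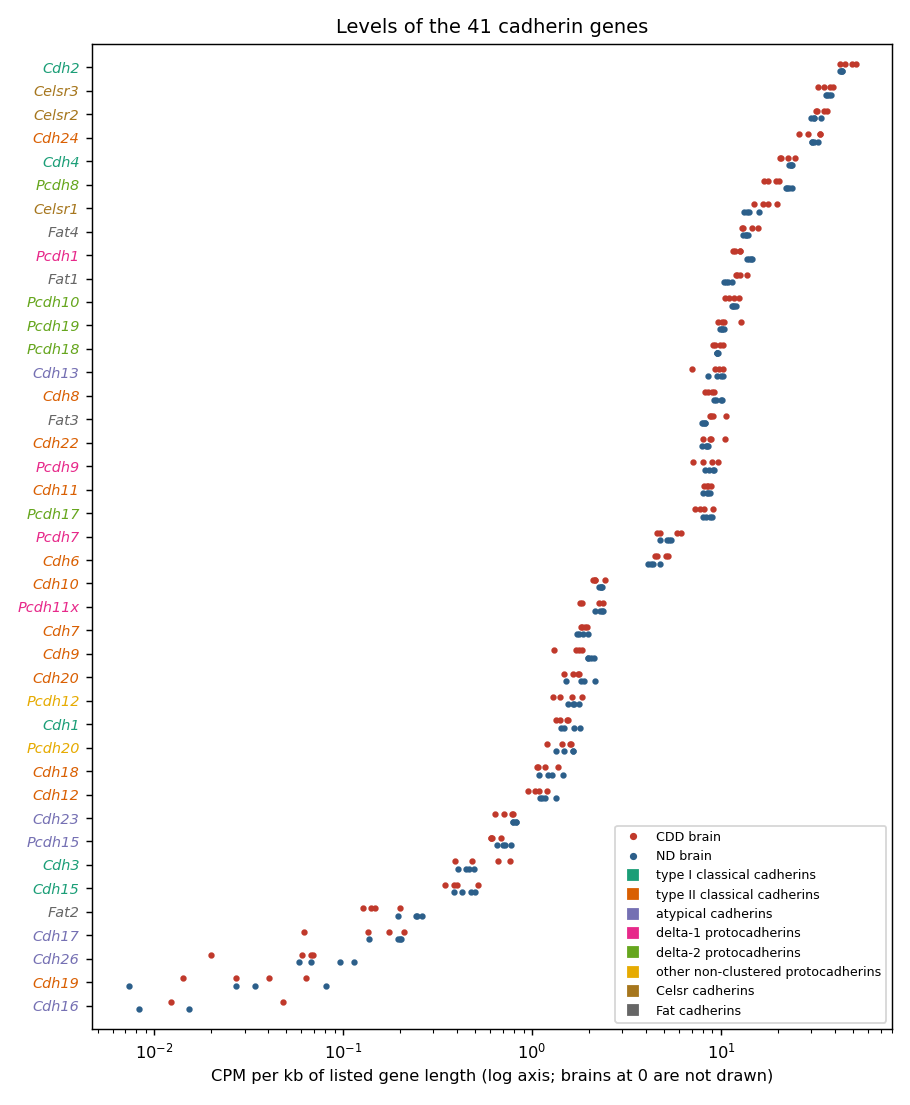
Level of each of the 41 cadherin genes in CPM per kb of listed gene length on a log axis, with 1 point per brain and the gene names coloured by branch. *Cdh2* is at the top with a mean of 45.3, and *Cdh16*, *Cdh19* and *Cdh26*, which were not tested, are at the bottom.

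The genes that work with cadherins were taken as 3 lists of 42 genes, of which 41 were tested and 5 were called (12.2%, against 8.83% of all genes). Among 15 tested catenins and other partners at the adherens junction, 2 rose and 1 fell. *Ctnna1*, alpha-E-catenin, which ties the cadherin complex to actin, was at 129, 126, 120.3 and 136 CPM in the CDD brains and 107, 116, 102 and 104 CPM in the ND brains. *Nectin3*, an adhesion protein that assembles such junctions, was at 65.6, 63.5, 60.9 and 71.8 CPM and at 55.4, 51.3, 51.3 and 54.1 CPM. Both were without overlap, and they rose by 0.25 (SE 0.048, adjusted p = 0.00366) and 0.30 (SE 0.053, adjusted p = 0.00279) on the log2 scale. Each stayed called whichever brain was left out.

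*Ctnnd2*, the p120-type delta-catenin of neurons, was at 196, 197, 207 and 209 CPM in the CDD brains and at 225, 219.8, 234 and 232 CPM in the ND brains, without overlap. It fell by 0.17 on the log2 scale (SE 0.043, adjusted p = 0.0186). The call was lost without CDD replicate 2 (adjusted p = 0.0617) and without ND replicates 1, 3 or 4 (0.0648, 0.103 and 0.0859). In those fits 7.14%, 3.5%, 2.4% and 3.13% of all genes were called, fewer than with all 8 brains. *Ctnnb1*, beta-catenin, was at 965 ± 36.6 CPM in CDD and 892 ± 27.6 CPM in ND and was not called (0.11, adjusted p = 0.155).

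In the list of Dachsous, Fat regulators and planar polarity genes, 0 of 16 were called higher and 1 was called lower in CDD. The 3 genes of the list without overlap (18.8%, against 15.0% of all genes) were higher in CDD and not called. They were *Vangl2* (0.15, adjusted p = 0.0553), *Fzd3* (0.25, adjusted p = 0.0565) and *Ptk7* (0.12, adjusted p = 0.0894). *Prickle1*, a core polarity gene, was at 18.1, 23.1, 20.6 and 20.3 CPM in the CDD brains and at 24.1, 22.3, 25.9 and 26.8 CPM in the ND brains. CDD replicate 2 was above ND replicate 2. *Prickle1* fell by 0.27 on the log2 scale (SE 0.077, adjusted p = 0.0341). Its call was lost without CDD replicate 1 (adjusted p = 0.103) and without ND replicates 1, 3 or 4 (0.0803, 0.135 and 0.132). Fewer of all genes were called with any of these brains left out than with all 8. The *Fat4* ligand *Dchs1* had a log2 fold change of 0.05 and *Dchs2* of -0.10, and neither passed the test.

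The last list held *Taok2* and genes of the WAVE complex, an actin regulator that delta-2 protocadherins bind. In it 0 of 10 genes rose and 1 fell. *Wasf1*, the neuronal WAVE protein, was at 104, 103, 106 and 106 CPM in the CDD brains and at 119, 110.0, 119 and 115 CPM in the ND brains. The groups did not overlap, and it fell by 0.14 on the log2 scale (SE 0.040, adjusted p = 0.0356). The call was lost without CDD replicates 1 or 2 (adjusted p = 0.0762 and 0.083), without ND replicates 1, 3 or 4 (0.147, 0.166 and 0.105), and with the trend of gene length taken out (0.107).

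Markers of some cell types moved beside these genes, where 8.83% of all genes tested were called. Of 8 neural progenitor markers, 3 rose (*Nes*, *Vim* and *Pax6*, with log2 fold changes of 0.47, 0.21 and 0.25) and 7 were above 0. Their summed level was 1536 to 1696 CPM in CDD and 1399 to 1477 CPM in ND, without overlap, and no marker of the list was at 0. Of 8 neuron markers, *Snap25* (-0.23) and *Gap43* (-0.18) fell, and 4 were above 0 without a call. The sums of the neuron markers overlapped, at 5921 to 6561 CPM in CDD and 6044 to 6278 CPM in ND. Of 7 endothelial markers 1 fell, and the sum was 243 to 260 CPM in CDD and 262 to 274 CPM in ND. Of 5 mural cell markers 1 fell, and the sum was 162 to 173 CPM against 174 to 189.9 CPM. The part of these shifts in the cadherin results was not tested.

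For the meningeal fibroblasts 1 marker rose and 2 fell of 7 (456 to 508 CPM in CDD and 482 to 578 CPM in ND), for erythroid cells 2 of 6 rose, and for the eye 2 of 4 tested rose (9.11 to 10.4 CPM and 6.53 to 8.03 CPM). Microglia, choroid plexus, surface epithelium, neural crest glia, skeletal muscle and pituitary had 0 markers called of 6, 5, 3, 5, 2 and 3 tested. None of the 8 caudal Hox markers passed the filter, with a sum of up to 81.2 CPM in the CDD group, from replicate 2, and up to 0.29 CPM in ND. Without CDD replicate 2, the 5 cadherin genes were again called, with *Celsr1* as the sixth.

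CDD brains varied more than ND brains in the cadherin genes. The median coefficient of variation over the 38 genes was 9.77% in CDD and 4.8% in ND, against 9.28% and 6.26% over all genes tested. Where the mean count was 100 or more, it was 9.12% and 4.28% for 34 cadherin genes, against 6.97% and 4.24% for all such genes. Of those 34 cadherin genes, CDD replicate 4 was the highest of the 8 brains in 14 (41.2%) and CDD replicate 1 the lowest in 13 (38.2%). Over the 13506 genes with such a mean, these shares were 25.9% and 14.5%.

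**Figure D4:**
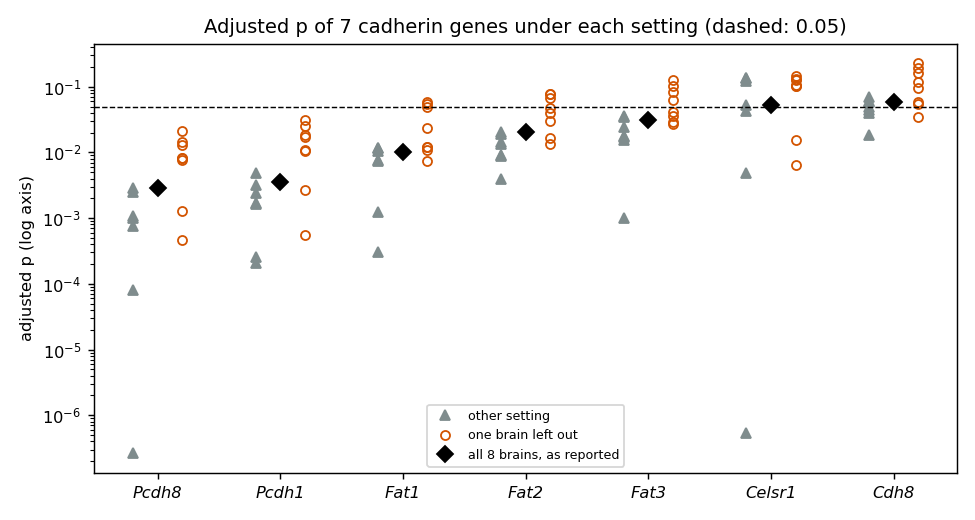
Adjusted p on a log axis for the 5 called cadherin genes, *Celsr1* and *Cdh8* with all 8 brains (black), with another setting of the processing (grey) and with 1 brain left out (open circles). *Pcdh8* and *Pcdh1* are below the dashed threshold of 0.05 throughout, and *Fat1*, *Fat2* and *Fat3* cross it when certain ND brains are left out.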

How the data were processed

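RNA from 8 whole E14.5 brains was compared by maternal diet as labelled (4 CDD, 4 ND). Raw counts of reads per gene were deposited by the authors, not normalized, with a gene length and coordinates as other columns. Their genome build is not given in the sources used here. Their processing notes name HISAT2 2.0.5, featureCounts 1.5.0-p3 and DESeq2 1.20.0. The normalized and FPKM columns and the columns of their own comparison (fold changes and p-values) were not used. No pair of libraries of a diet agreed within sampling noise (chi-square per degree of freedom 3.76 to 22.5).

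Counts were filtered with filterByExpr, scaled by TMM and tested for diet with the robust quasi-likelihood test of edgeR 4.0.16 (R 4.3.3), with Benjamini-Hochberg adjustment over 19367 genes and a threshold of 0.05. The SE is the log2 fold change divided by the root of F. The common biological coefficient of variation was 0.0814. DESeq2 1.42.0, RLE scaling, no filter, a replicate block, a loess trend of gene length (span 0.3), leaving out each brain, and *Xist* as a covariate, added after seeing the data, were alternatives. The test takes in the sampling error of the counts and the spread between brains. Reads were not stated to be counted by strand, and genes overlapping a called cadherin gene held at most 14 counts. Counts simulated for 19367 genes gave 48 calls among 63 genes set to differ by 0.5 (log2), 64 among 66 at 1, 68 among 71 at 1.5, and 8 among unchanged genes. No difference under 0.5 was simulated, so the share called at the smaller differences of most cadherin genes is not known.

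The members, the lists and this plan were chosen with earlier results of these data known. Named in full were called cadherin genes, the highest gene per kb of each branch, and called partners. Python 3.11.15, pandas 2.3.3, NumPy 2.4.6 and matplotlib 3.10.9 were used.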

Additional observations from a re-analysis of the deposited data

Results flagged for a closer look

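In 4 of the 76 sets of 4 brains examined (38 cadherin genes in 2 diets), a single brain lay far from the other 3 by Dixon's criterion, where chance gives about 3.8. *Fat3* in CDD replicate 4 was at 229.6 CPM against 187 to 194 CPM in the other CDD brains. *Pcdh15* in CDD replicate 2 was at 16.3 CPM against 14.4 to 14.5 CPM, and without that brain its log2 fold change was -0.23 with an adjusted p of 0.0794. *Cdh4* in ND replicate 1 was at 166 CPM against 171 CPM in each of the others. *Cdh17* in ND replicate 4 was at 0.609 CPM against 0.875 to 0.907 CPM.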

How the results depend on the processing

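The 5 called cadherin genes were called under all 7 alternatives that kept all 8 brains. Over 18 named genes and 15 alternatives, 230 of 270 values kept direction and side of the threshold, 25 lost the call, 10 gained it and 5 changed sign. With *Xist* as a covariate, 8 cadherin genes were called, 6 of them lower (*Cdh8*, *Cdh9* and *Pcdh11x* were added), beside 9.5% of all genes in that fit. Partner genes called were 8 with DESeq2, beside 13.9% of all genes in that fit. They were also 8 without the filter on low counts, beside 6.99% of all genes. The log2 fold changes that turned were those of *Cdh24* (0.0044 with *Xist* as a covariate, and -0.0804 to 0.0373 with 1 brain left out), *Cdh13* (-0.135 to 0.0375), *Celsr3* (-0.0788 to 0.0091) and *Fat4* (-0.0025 to 0.0969), none of them called; the cause was not tested. Leaving out 1 brain gave 471 (without ND replicate 3) to 2495 (without CDD replicate 3) genes called, 2 to 7 cadherin genes, 0 to 3 higher and 2 to 5 lower, 2 to 9 partners, and a median log2 fold change of the cadherin genes between -0.08 and -0.03. The replicate numbers were not taken to pair the samples. Correlations of same-numbered brains were 0.242, -0.279, 0.234 and 0.406, and those of differently numbered brains ran from -0.465 to 0.431. Deviations from the mean of 4 brains depend on each other, so these values cannot exclude a pairing. With a replicate block 1812 genes and the same 5 cadherin genes were called. The SE of the log2 fold change ran from 0.041 for *Pcdh1* to 0.31 for *Cdh17*, so that genes not called are not shown to be unaffected.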
